A study of Mus musculus with 36 samples.

Results

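The complement genes described here are C1qa, C1qb, C1qc, C3, C4b, Cfb, Cfp, C3ar1 and C5ar1, 9 of the 16415 genes in the expression table, each taken as the row that carries its symbol. All 9 passed the filter on low values that left 12858 genes for testing. Left ventricles of C57BL/6 mice, males of 8 weeks at surgery, were taken 1 day (early stage), 1 week (middle stage) or 8 weeks (late stage) after myocardial infarction (MI) or a sham operation. In MI the proximal left anterior descending coronary artery was tied, and sham animals had the same procedure without closing the artery. There were 3 mRNA libraries for each of the 6 groups, 18 in all. RNA was extracted from pooled ventricles, and the number of animals behind each library is not given in the sources used here. The columns of the 3 libraries of a group carry different specimen numbers, whose meaning is not stated, and the methods give the size of a pool for the protein samples only. So p-values measure the spread between libraries, which may be technical in part. One fit of all 6 groups gave each gene a single spread, shared by all stages. Where the late MI libraries of a gene lie far apart, its SE can be too wide for 1 day and too narrow for 8 weeks. The sources used here name left ventricle and do not say whether infarct and remote muscle were separated. Scar, surviving muscle and infiltrating cells may thus be mixed in each value, in shares that can differ between libraries. Values are FPKM, fragments scaled by transcript length and by mapped fragments, so that levels of genes of different length can be set side by side. FPKM assumes that libraries are alike in total RNA composition, and other scalings of the libraries lowered the later MI effects, as given below.

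Complement is a cascade of blood and tissue proteins that marks damaged cells and microbes for removal. In the classical pathway C1q, built from the chains A, B and C, binds its target and starts the cleavage of C4 and C2. In the alternative pathway factor B, encoded by Cfb, joins with C3b, and properdin, encoded by Cfp, holds that complex together. Both routes cleave C3, and the small fragments C3a and C5a that are released further down attract and activate myeloid cells through their receptors C3ar1 and C5ar1. Liver makes most of the C3 and C4 in blood, whereas C1q and properdin come largely from macrophages and other myeloid cells, and damaged tissue can make complement proteins itself.

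The 3 C1q genes lie side by side on the minus strand of chromosome 4 in a stretch of 18719 bases (GRCm38.p6, the patched form of the mm10 build of the values). C1qa spans chr4:136895916-136898844, C1qc chr4:136889801-136892936 and C1qb chr4:136880126-136886200. C1qc and C1qa are separated by 2979 bases, and C1qb and C1qc by 3600. C4b at chr17:34728139-34743902, Cfb at chr17:34856374-34862514 and C3 at chr17:57203967-57228136 share chromosome 17, where Cfb ends 87 bases from C2. Cfp is at chrX:20925454-20931555, C3ar1 at chr6:122847140-122856157 and C5ar1 at chr7:16246743-16259540, and all 9 genes are on the minus strand. RefSeq windows of 250 bases before the gene start were at hand for 6 of the 9 genes (C1qb, C1qc, C3, Cfp, C3ar1 and C5ar1). They were searched on both strands for GAGGAA, the core bound by the myeloid factor PU.1, for TTGCNNAA, a form of the C/EBP motif, and for TTCNNNGAA, the STAT motif. Over 32851 such windows of all genes, 23.3% hold GAGGAA, 9.56% hold TTGCNNAA and 7.02% hold TTCNNNGAA. GAGGAA was found at -30 in C1qb and, as TTCCTC on the other strand, at -193 in C1qc, while TTGCNNAA was found at -45 in C3 as TTGCGAAA. Positions are counted back from the end of the window to the first letter of the match. The 3 windows with a match are shown because they belong to genes among the most abundant of the 9, with the matches in capitals. In the order printed they are chr4:136886201-136886450, chr4:136892915-136893164 and chr17:57228137-57228386, read on the minus strand, and the last 22 bases of the C1qc window lie inside the annotated span of that gene.
C1qb: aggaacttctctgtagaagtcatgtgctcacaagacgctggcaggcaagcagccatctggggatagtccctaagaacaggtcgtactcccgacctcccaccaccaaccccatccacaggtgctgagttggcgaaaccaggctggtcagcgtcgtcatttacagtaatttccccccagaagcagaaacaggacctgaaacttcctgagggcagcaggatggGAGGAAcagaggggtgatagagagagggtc
C1qc: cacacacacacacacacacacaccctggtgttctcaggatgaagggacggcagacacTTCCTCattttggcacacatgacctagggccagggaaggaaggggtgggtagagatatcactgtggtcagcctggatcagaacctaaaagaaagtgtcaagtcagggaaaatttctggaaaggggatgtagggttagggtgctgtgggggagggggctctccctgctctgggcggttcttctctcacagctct
C3: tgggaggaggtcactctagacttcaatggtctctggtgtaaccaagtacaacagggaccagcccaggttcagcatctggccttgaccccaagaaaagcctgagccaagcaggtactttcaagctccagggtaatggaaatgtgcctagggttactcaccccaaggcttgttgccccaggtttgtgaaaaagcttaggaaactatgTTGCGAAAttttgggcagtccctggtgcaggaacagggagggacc
TTCNNNGAA was in none of the 6 windows, and Cfp, C3ar1 and C5ar1 had no match to any of the 3 motifs. Of the 250 bases of the C5ar1 window, 202 lie inside the annotated span of the gene and 48 before it. A match is only a run of letters here, since binding was not measured.

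The files hold no read counts, and the steps between low FPKM values put the libraries at an estimated 26900000 to 37500000 fragments each. The labelled tissue was borne out by the cardiomyocyte list (12 genes), whose summed level was between 33270 and 40130 FPKM in the 9 sham libraries. In MI that sum ran from 12560 to 15790 FPKM in the early group, from 4100 to 11270 in the middle group and from 18020 to 40910 in the late group. Neutrophil markers, of which 11 of 12 listed genes were in the table, summed to 6525 to 10400 FPKM at 1 day of MI against at most 90.3 FPKM in any other group, and 15 macrophage markers summed to 300.3 to 394 FPKM in early MI, 1405 to 1681 in middle MI and 229 to 569.8 in late MI, against 69.3 to 112 FPKM in sham. The MI libraries of 8 weeks stood apart from each other. Replicates 2 and 3 held adipocyte markers at sums of 296 and 881 FPKM, against 21.2 in replicate 1 and at most 35.5 in sham, and replicate 3 also held 5 mesothelial markers at a sum of 191 FPKM, against 11.6 and 24.1 in replicates 1 and 2. The 9 complement genes were all highest in replicate 3 and lowest in replicate 1 of that group, as were the summed macrophage, fibroblast, adipocyte and mesothelial markers, so late effects of the 9 genes are also given without replicates 2 and 3. Of the hepatocyte list, 3 of 8 genes were analysed and their sum did not exceed 0.806 FPKM in any library. In ventricle tissue, more cells of a type and more RNA per cell cannot be told apart.

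**Figure D1:**
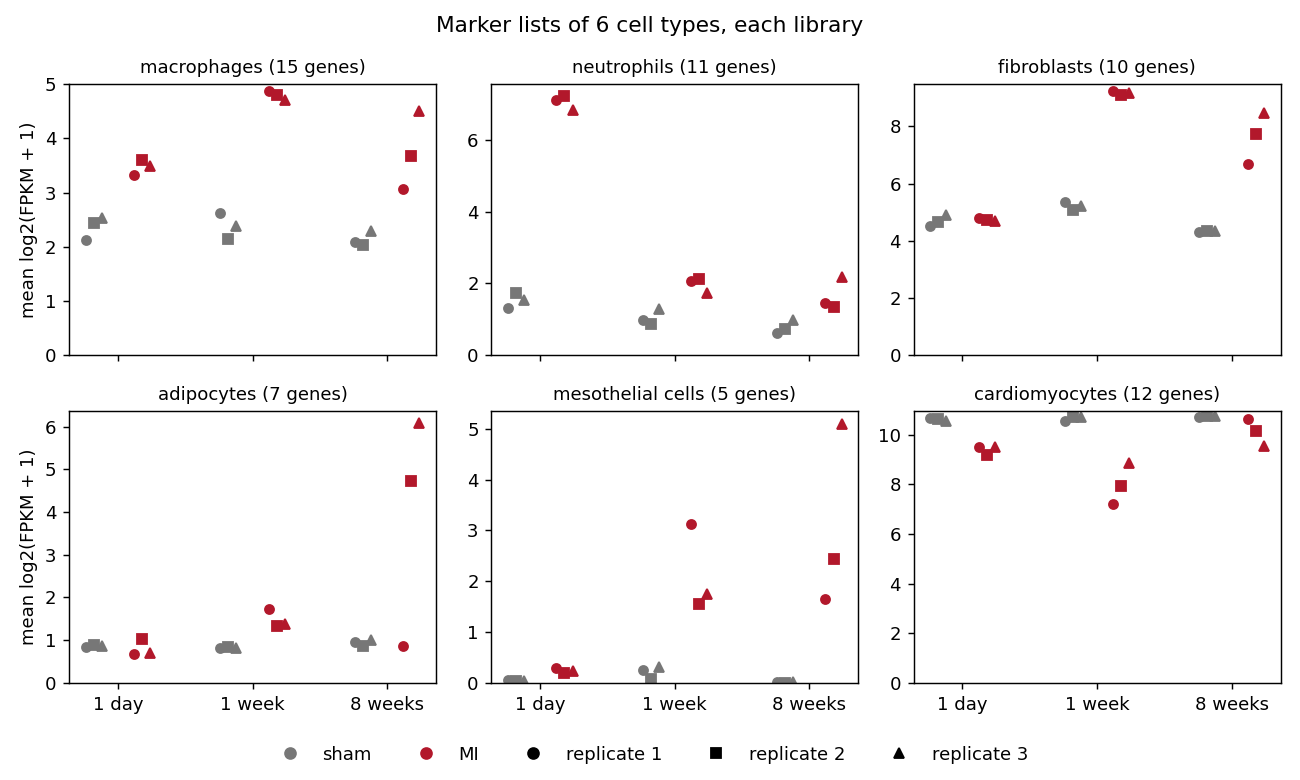
Mean log2(FPKM + 1) of the marker lists of 6 cell types in each of the 18 libraries by stage (grey, sham; red, MI; circle, square and triangle, replicates 1, 2 and 3). The neutrophil list is high at 1 day of MI, the macrophage and fibroblast lists are highest at 1 week, and the adipocyte list is high in replicates 2 and 3 at 8 weeks of MI.

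In short, 5 of the 9 complement genes were higher in MI than in sham at 1 day (C3, Cfb, Cfp, C3ar1 and C5ar1), and the whole set of 9 was higher in the middle and late stages, by limma on log2(FPKM + 1) with an adjusted p below 0.05. None was lower at any stage. The calls have to be read against all tested genes, of which 39.7% were called higher and 30.6% lower in the early stage, 72.8% higher and 16.5% lower in the middle stage, and 70.4% higher and 10.6% lower in the late stage. Scaling libraries by median-ratio factors took the share of higher calls among all called genes from 56.5%, 81.5% and 87% at the 3 stages to 50.7%, 51.3% and 49%, and left the calls of the 9 genes at 5, 9 and 9. The median of all genes at 1 week went from 0.79 to 0.04 with it, and the 1-week effects of the 9 genes became smaller, for example 2.55 in place of 3.51 for C1qa and 3.76 in place of 4.55 for C3ar1. The median log2 fold change was 1.495 for the 9 genes and 0.09 for all tested genes at 1 day, 3.30 and 0.79 in the middle stage, and 2.19 and 0.52 in the late stage. Relative to the median of all genes, the log2 fold changes of the 9 genes ran from 0.07 (C1qc) to 3.86 (C5ar1) at 1 day, from 1.62 (Cfp) to 3.76 (C3ar1) in the middle stage and from 1.25 (C5ar1) to 3.51 (C4b) at 8 weeks. All 3 MI libraries lay above all 3 sham libraries for 8 of 9 genes in the early stage and for 9 in each later stage, which was the case for 45.4%, 74.8% and 66.3% of all tested genes. With replicate 1 as the single late MI library, the late log2 fold changes of the 9 genes ran from 1.14 (C5ar1) to 2.80 (C4b). Any SE given with such values takes its spread from the other groups, since 1 library has none. By the stage of their highest MI mean the 9 genes fell into 3 groups, described in turn. The C1q genes and C3ar1 were highest at 1 week, C3, C4b and Cfb had their highest means at 8 weeks, and Cfp and C5ar1 were highest at 1 day. On the deposited scale the 1-week effects of Cfp and C5ar1 were not called different from those of 1 day (adjusted p = 0.24 and 0.124 by limma). The late means of C3 and C4b rest on replicates 2 and 3, and that of Cfb on replicate 3 alone. Replicate 1 lay below every 1-week MI library for all 3 genes. So did replicate 2 for Cfb, at 8.40 against 11.9 to 15.1 FPKM. None of the 3 genes was called different between 8 weeks and 1 week with all libraries. With only replicate 3 left out, the Cfb difference was -0.95 (adjusted p = 0.0033 by limma).

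**Figure D2:**
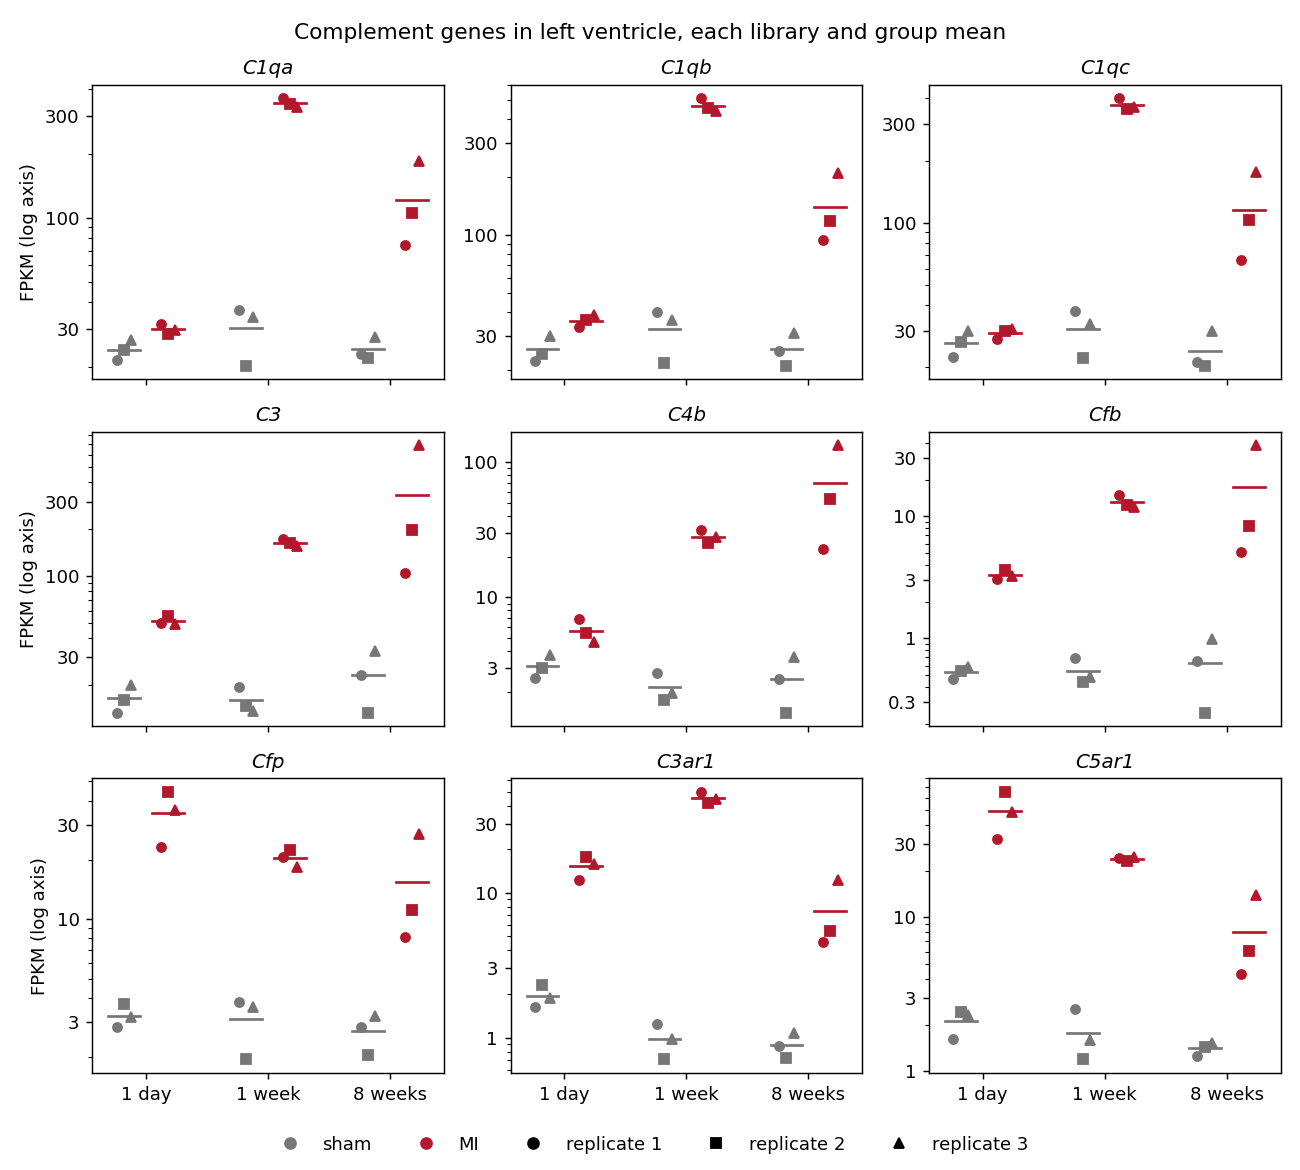
FPKM (log axis) of the 9 complement genes in each library by sham (grey) and MI (red), with a circle, square and triangle for replicates 1, 2 and 3 and the group mean as a line, for the early, middle and late stages. The C1q genes rise to 331 to 513 FPKM at 1 week, C3, C4b and Cfb spread widely among the MI libraries of 8 weeks, and Cfp and C5ar1 are highest at 1 day.

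The chains of C1q were not called 1 day after MI, at 1.115 to 1.41 times the sham mean, and were 11.3 to 14.3 times the sham mean at 1 week. C1qa was at 31.6, 28.4 and 29.8 FPKM at 1 day of MI, against 21.4, 23.9 and 26.7 FPKM in sham. Its MI libraries all lay above the sham libraries, yet the log2 fold change of 0.31 ± 0.25 (SE) did not pass the test (adjusted p = 0.281). At 1 week C1qa was at 363, 341 and 331 FPKM in MI and at 36.9, 20.1 and 34.2 FPKM in sham. The mean of 345 ± 16.5 FPKM (SD, n = 3) was 11.3 times the sham mean of 30.4 ± 9.03, a log2 fold change of 3.51 ± 0.25 (adjusted p = 3.54e-09). At 8 weeks the MI libraries held 74.7, 106 and 184 FPKM and the sham libraries 23.0, 21.9 and 27.4. The rise was 5.05 times on the means and 2.19 ± 0.25 on the log2 scale (adjusted p = 1.53e-06). With replicate 1 as the single late MI library the log2 fold change was 1.60.

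C1qb, which encodes the B chain, was the most abundant of the 9 genes at 1 week. It stood at 33.5, 36.6 and 38.5 FPKM at 1 day of MI against 22.4, 24.4 and 30.2 FPKM in sham, a log2 fold change of 0.49 ± 0.25 (adjusted p = 0.0915). At 1 week it reached 513, 454 and 441 FPKM, against 40.2, 21.9 and 36.4 in sham, and rose by 3.84 ± 0.25 on the log2 scale (adjusted p = 1.53e-09). At 8 weeks it was at 94.9, 118 and 210 FPKM against 25.3, 21.0 and 31.0, a log2 fold change of 2.34 ± 0.25 (adjusted p = 7.64e-07), or 1.86 ± 0.26 without late replicates 2 and 3. No MI library overlapped a sham library of the same stage. C1qc, which encodes the C chain, was at 27.3, 29.98 and 30.4 FPKM at 1 day of MI and at 22.2, 26.4 and 29.98 FPKM in sham. It was the only one of the 9 genes whose MI and sham libraries overlapped at 1 day, and its log2 fold change there was 0.16 ± 0.26 (adjusted p = 0.606), with values of -0.03 to 0.17 under other choices of processing. At 1 week C1qc was at 401, 355 and 363 FPKM against 37.2, 22.05 and 32.4 in sham (log2 fold change 3.60 ± 0.26, adjusted p = 4.63e-09). At 8 weeks it was at 66.1, 103 and 176 FPKM against 21.2, 20.2 and 29.9 (2.14 ± 0.26, adjusted p = 3.41e-06), or 1.46 ± 0.24 without late replicates 2 and 3.

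C1q protein is assembled from equal numbers of its chains, and the 3 mRNAs also kept close to each other. The ratio of C1qb to C1qa lay between 0.96 and 1.41 over the 18 libraries, and that of C1qc to C1qa between 0.866 and 1.12, while the sum of the 3 genes ran from 63.2 to 1276 FPKM. The C1qb to C1qa ratio was 1.33 to 1.41 in the 1-week MI libraries, above the 0.96 to 1.29 of every other group. The test of the stages on each other placed the C1q effect of 1 week above that of 1 day by 3.20 ± 0.35 for C1qa, 3.35 ± 0.35 for C1qb and 3.44 ± 0.37 for C1qc on the log2 scale (adjusted p = 1.41e-06, 8.57e-07 and 1.17e-06). From 1 week to 8 weeks the effect fell by 1.31 ± 0.35, 1.499 ± 0.35 and 1.46 ± 0.37 (adjusted p = 0.0076, 0.00332 and 0.00558). It was still larger at 8 weeks than at 1 day, by 1.88, 1.85 and 1.98 (adjusted p = 0.000266, 0.000298 and 0.000282).

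C3, the central component on which all routes converge, was higher in MI at every stage. At 1 day it was at 49.7, 55.6 and 49.3 FPKM in MI against 13.2, 16.0 and 19.9 FPKM in sham, 3.15 times the sham mean (log2 fold change 1.61 ± 0.46, adjusted p = 0.0054). At 1 week it was at 172, 164 and 156 FPKM against 19.3, 14.6 and 13.7, and its log2 fold change was 3.30 ± 0.46 (adjusted p = 4.87e-06). At 8 weeks the MI libraries held 105, 196 and 693 FPKM, a range of 6.60 times, against 23.2, 13.3 and 32.8 FPKM in sham. All MI libraries lay above all sham libraries, and the log2 fold change was 3.43 ± 0.46 (adjusted p = 8.08e-06). With replicate 1 as the single late MI library it was 2.22. The middle and late effects of C3 were indistinguishable with all libraries (0.13 ± 0.65, adjusted p = 0.885). Without replicates 2 and 3 the difference of the late from the middle effect was -1.08.

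C4b encodes C4, the target of the classical and lectin pathway proteases. It was at 6.87, 5.46 and 4.66 FPKM at 1 day of MI and at 2.56, 3.02 and 3.73 FPKM in sham, without overlap, but the log2 fold change of 0.70 ± 0.41 did not pass the test (adjusted p = 0.146). It passed when the 1-day libraries were fitted alone (adjusted p = 0.0016), as did C1qa and C1qb (adjusted p = 0.0102 and 0.0026). At 1 week C4b was at 31.2, 25.1 and 27.9 FPKM against 2.77, 1.76 and 1.97 in sham, a log2 fold change of 3.21 ± 0.41 (adjusted p = 2.1e-06). At 8 weeks it was at 22.6, 53.1 and 133 FPKM against 2.51, 1.41 and 3.64. The ratio of the means was 27.7, and the log2 fold change of 4.03 ± 0.41 was the highest of the 9 genes at that stage (adjusted p = 5.63e-07). Without replicates 2 and 3 the log2 fold change was 2.80. The near-identical gene C4a, 65189 bases away, was listed at 0.0289 to 0.0762 times the C4b value in each library, and reads that fit both could have been split between them.

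Cfb, the factor B of the alternative pathway, was barely present in sham hearts, at 0.246 to 0.983 FPKM over the 9 sham libraries, which is an estimated 20 to 85 fragments each. In MI it was at 3.06, 3.66 and 3.22 FPKM at 1 day, a log2 fold change of 1.495 ± 0.44 (adjusted p = 0.00599). At 1 week it was at 15.1, 12.3 and 11.9 FPKM, 24.3 times the sham mean of 0.539 ± 0.13 (SD, n = 3), and the log2 fold change was 3.19 ± 0.44 (adjusted p = 3.72e-06). At 8 weeks it was at 5.09, 8.40 and 38.5 FPKM, a range of 7.57 times that was the widest of the 9 genes. The log2 fold change was 3.04 ± 0.44 (adjusted p = 1.45e-05), or 1.93 without replicates 2 and 3. Since the scale adds 1 to each FPKM, these log2 values understate the ratio of such a low gene. For C3, C4b and Cfb the effect at 1 week exceeded that at 1 day by 1.69 ± 0.65, 2.51 ± 0.59 and 1.70 ± 0.62 (adjusted p = 0.0296, 0.00132 and 0.0218). The effect at 8 weeks exceeded that at 1 day by 1.82 ± 0.65, 3.34 ± 0.59 and 1.54 ± 0.62 (adjusted p = 0.0237, 0.000154 and 0.039). Without replicates 2 and 3 of the late MI group this last difference was 2.10 for C4b, 0.61 for C3 and 0.43 for Cfb.

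Cfp, the gene of properdin, was highest at the early stage. It was at 23.3, 44.3 and 35.9 FPKM at 1 day of MI and at 2.86, 3.70 and 3.19 FPKM in sham, 10.6 times the sham mean (log2 fold change 3.02 ± 0.32, adjusted p = 4.49e-07). At 1 week it was at 20.6, 22.4 and 18.4 FPKM against 3.80, 1.95 and 3.58 (2.42 ± 0.32, adjusted p = 2.69e-06). At 8 weeks it was at 8.12, 11.2 and 26.9 FPKM against 2.86, 2.06 and 3.23 (1.99 ± 0.32, adjusted p = 4.39e-05). The late effect was 1.31 without late replicates 2 and 3. None of the 3 stage differences of Cfp passed the test, the largest being -1.03 ± 0.45 for 8 weeks against 1 day (adjusted p = 0.0566). That difference was -1.35 after quantile normalization (adjusted p = 0.006). Without replicates 2 and 3 of the late MI group it was -1.71.

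A receptor of the anaphylatoxins had the highest ratio to sham of the 9 genes at the early stage (C5ar1) and another at the middle stage (C3ar1). C5ar1, the receptor of C5a, was at 32.5, 65.6 and 48.6 FPKM at 1 day of MI and at 1.61, 2.41 and 2.34 FPKM in sham. The mean of 48.9 ± 16.5 FPKM (SD, n = 3) was 23.1 times that of sham (log2 fold change 3.95 ± 0.30, adjusted p = 1.16e-08). At 1 week it was at 24.4, 23.3 and 24.7 FPKM against 2.54, 1.19 and 1.61 (3.20 ± 0.30, adjusted p = 5.86e-08), and at 8 weeks at 4.31, 6.03 and 13.9 FPKM against 1.26, 1.44 and 1.52 (1.77 ± 0.30, adjusted p = 6.96e-05). Without late replicates 2 and 3 the last effect was 1.14. The MI libraries of the 3 stages did not overlap each other. The effect fell by 1.43 ± 0.42 from 1 week to 8 weeks (adjusted p = 0.0128) and by 2.18 ± 0.42 from 1 day to 8 weeks (adjusted p = 0.000365). The difference between 1 week and 1 day was -0.75 ± 0.42 (adjusted p = 0.124), and it passed the test after quantile normalization (-1.18, adjusted p = 0.00678).

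C3ar1, the receptor of C3a, peaked instead at the middle stage. It was at 12.3, 17.8 and 15.7 FPKM at 1 day of MI against 1.63, 2.31 and 1.88 FPKM in sham (log2 fold change 2.46 ± 0.24, adjusted p = 1.6e-07). At 1 week it was at 49.8, 41.6 and 44.3 FPKM against 1.24, 0.705 and 0.98, and the mean of 45.3 ± 4.18 FPKM (SD, n = 3) was 46.4 times the sham mean, the highest ratio among the 9 genes at any stage (4.55 ± 0.24, adjusted p = 2.62e-10). At 8 weeks it was at 4.57, 5.45 and 12.3 FPKM against 0.871, 0.718 and 1.07 (2.05 ± 0.24, adjusted p = 1.75e-06), or 1.57 ± 0.19 without late replicates 2 and 3. The effect at 1 week exceeded that at 1 day by 2.10 ± 0.34 (adjusted p = 4.99e-05) and then fell by 2.50 ± 0.34 to 8 weeks (adjusted p = 8.51e-05). Early and late effects differed by -0.40 ± 0.34, which did not pass the test (adjusted p = 0.306). The difference was -0.89 without replicates 2 and 3 of the late MI group.

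**Figure D3:**
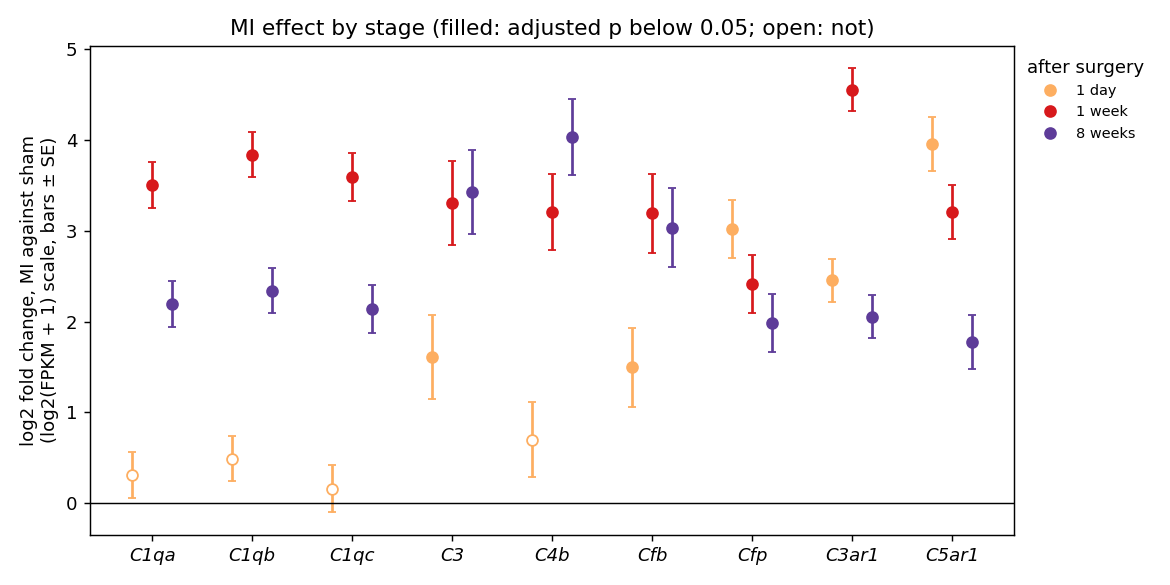
Log2 fold change of MI against sham on the log2(FPKM + 1) scale for the 9 complement genes at the early (orange), middle (red) and late (purple) stages, with bars of ± 1 SE from limma, filled where the adjusted p is below 0.05. The open points at 1 day are C1qa, C1qb, C1qc and C4b, and the highest point is C3ar1 at 1 week with 4.55.

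Counted over the 9 genes, 7 had a larger MI effect at 1 week than at 1 day (all but Cfp and C5ar1) and none a smaller one, where 60% and 11.8% of all tested genes were called higher and lower. From 1 week to 8 weeks, 5 effects became smaller (the 3 C1q genes, C3ar1 and C5ar1) and none became larger, with 17.1% of all tested genes called higher and 29.9% lower. With replicate 1 as the single late MI library the differences of C3, C4b, Cfb and Cfp were -1.08, -0.41, -1.26 and -1.11. From 1 day to 8 weeks, 6 effects were larger (the 3 C1q genes, C3, C4b and Cfb) and that of C5ar1 was smaller, with 51.8% and 11.9% of all tested genes called higher and lower. With that single late library these differences ran from -2.81 (C5ar1) to 2.10 (C4b), with C3 at 0.61, Cfb at 0.43, Cfp at -1.71 and C3ar1 at -0.89. At least 1 of the 3 differences was called for 8 of the 9 genes and for 88.5% of all tested genes. The first and the last of these splits changed with the scaling of libraries. The shares of all tested genes were taken on the deposited scale only, so the rescaled counts have no share beside them. After median-ratio scaling 5 effects were larger and 2 smaller at 1 week than at 1 day, Cfp and C5ar1 being the smaller ones and C3 and Cfb no longer past the threshold. From 1 day to 8 weeks 4 effects were then larger and 3 smaller, C3 and Cfb being lost and Cfp (-1.54, adjusted p = 0.0021) and C3ar1 (-0.81, adjusted p = 0.0116) added to the smaller ones, and quantile normalization gave 5 and 3.

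In sham hearts alone, no complement gene of the 9 was called between 1 week and 1 day, where 1.42% of all tested genes were called in either direction, or between 8 weeks and 1 week, where 0.848% were called, by limma with an adjusted p below 0.05. At an unadjusted p below 0.05 there was 1 gene of the 9 in the first comparison and 0 in the second, where 11.1% and 9.77% of all tested genes were below it by limma. That gene was C3ar1, at 1.63, 2.31 and 1.88 FPKM in sham at 1 day and 1.24, 0.705 and 0.98 at 1 week, a log2 difference of -0.58 ± 0.24 (adjusted p = 0.349 by limma). Sham replicate 2 of 1 week had the lowest value of its group for the 3 C1q genes, C4b, Cfb, Cfp, C3ar1 and C5ar1.

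The order of the 6 groups puts these levels together. For each C1q gene the 1-week MI libraries were above those of every other group, followed by the 8-week MI libraries. For C1qa and C1qc the mean of the 1-day MI group then fell among the sham means, below that of 1-week sham. For C1qb it lay above all sham means. The 1-day MI libraries overlapped the 1-week sham libraries for each C1q gene. For C3, C4b and Cfb the late MI group came first and overlapped the middle MI group, which stood apart from the early MI group. For Cfp the early MI group stood apart from the middle one, which overlapped the late one. For C3ar1 the order was 1 week, 1 day and 8 weeks of MI, and the last of these overlapped at the edge.

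The members were also set against the marker lists in the same library, as a description. The C1q genes lay above the mean log2 level of the macrophage list in all groups, but by a varying amount. For C1qa the distance was 2.27 ± 0.09 in sham at 1 day and 1.47 ± 0.22 in MI at 1 day (SD, n = 3), then 3.64 ± 0.02 in MI at 1 week against 2.54 ± 0.25 in sham, and 3.08 ± 0.08 in MI at 8 weeks against 2.50 ± 0.03 in sham. The direction depended on the list. Against the fibroblast list C1qa lay 0.74 ± 0.05 below at 1 week of MI and 0.29 ± 0.34 below in sham of that stage. At 1 day of MI, when C1qa was not called, 9 of the 14 tested macrophage markers were called higher and none lower. C5ar1 had the opposite order against the macrophage list. It lay 2.11 ± 0.35 above that list at 1 day of MI, 0.74 ± 0.06 below it in sham of that day, and 0.14 ± 0.09 below it at 1 week of MI. Against the neutrophil list C5ar1 lay 1.46 ± 0.49 below at 1 day of MI and 0.10 ± 0.08 above in sham of that day. At 1 day all 10 tested neutrophil markers were called higher, with a median log2 fold change of 5.69. Their part in the early values of C5ar1 and Cfp was not tested. C4b lay 0.06 ± 0.13 above the macrophage list at 1 week of MI and 2.04 ± 0.53 above it at 8 weeks. At 8 weeks 10 of 10 fibroblast, 6 of 7 adipocyte and 5 of 5 mesothelial markers tested were called higher. At 1 week 9, 1 and 5 of these markers were already called higher. The median log2 fold change of the fibroblast markers was 3.70 at 1 week and 3.37 at 8 weeks. The part of these markers in the late values of C3, C4b and Cfb was not tested. In late replicate 1, whose adipocyte markers summed to 21.2 FPKM against 28.4 to 35.5 in late sham, the 3 genes were at 105, 22.6 and 5.09 FPKM, above all late sham libraries. That library still had fibroblast markers at a sum of 2191 FPKM against 495 to 513 in late sham, and mesothelial markers at 11.6 against at most 0.0744 FPKM.

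The genes nearest in pattern were sought among 7135 genes with a mean of at least 5 FPKM, by the root mean square difference of centred log2(FPKM + 1) over the 18 libraries. Among the 9 themselves the C1q chains were 0.113 to 0.158 apart, C3 and Cfb 0.303, C3 and C4b 0.352, and Cfp and C5ar1 0.494. For C1qa the nearest other genes were Chpf (0.166), Rian (0.212) and Thy1 (0.221), for C1qb Bmp1 (0.236), Mrc2 (0.246) and Chpf (0.27), and for C1qc Chpf (0.193), Igf1 (0.21) and Pld3 (0.226). The genes closest to C5ar1 were Msr1 (0.162), Glipr2 (0.181) and Igsf6 (0.187). Those of Cfp were Slc9a3r1 (0.228), Hcls1 (0.244) and Dok3 (0.249), and those of C3ar1 were Actn1 (0.25), Myo1f (0.259) and Cd84 (0.276). C3, C4b and Cfb had no gene as close. Slc1a5 (0.485), Acp5 (0.488) and Colec12 (0.504) came nearest to C3, and Nbl1 (0.434), C1ra (0.455) and Gpc3 (0.465) to C4b. For Cfb they were Vcam1 (0.353), Colec12 (0.36) and Phlda3 (0.362). Of all these, Colec12 and C1ra are themselves on the list of other complement genes.

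Of 47 further complement genes on a fixed list, 38 were in the table and 27 passed the filter. At 1 day 6 of them were higher in MI and 3 lower, at 1 week 21 and 3, and at 8 weeks 23 and 1, with the same shares of all tested genes as above. After median-ratio scaling 18 were higher and 5 lower at 8 weeks. Of all 9341 genes called there, 49% were higher, which is a share of called genes and not of tested genes. The 8-week log2 fold changes ran from -0.375 (C1qbp) to 5.90 (Cfd) with all libraries. Without late MI replicates 2 and 3 they ran from -0.45 (Cd93) to 3.09 (Itgax). Of the early rises 5 were receptors or binding proteins. Itgam and Itgb2, which form complement receptor 3, were at 102, 181 and 138 FPKM and at 38.6, 71.7 and 57.9 FPKM at 1 day of MI, against 1.42 to 3.00 and 2.06 to 3.60 FPKM in sham (log2 fold changes 5.40 ± 0.34 and 3.87 ± 0.27, adjusted p = 1.75e-09 and 3.95e-09). Itgax (1.85 ± 0.19), Cd93 (1.01 ± 0.19), the scavenger lectin Colec12 (0.99 ± 0.28) and C5ar2, a second receptor of C5a (1.93 ± 0.15), were the others. The 3 that fell were Colec11, a soluble lectin (from 6.78, 7.21 and 8.66 FPKM in sham to 1.29, 0.723 and 1.39 in MI, -2.01 ± 0.16, adjusted p = 2.18e-08), Vtn (-1.58 ± 0.15, adjusted p = 1.7e-07) and Cd59a, an inhibitor of the membrane attack complex (-1.31 ± 0.10, adjusted p = 9.94e-09).

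The proteases that C1q activates were not called at 1 day and rose later. C1ra was at 4.54, 4.04 and 3.90 FPKM at 1 day of MI against 3.20, 3.67 and 4.81 in sham (0.09 ± 0.29, adjusted p = 0.809), and at 35.0, 32.8 and 37.4 FPKM at 1 week against 5.08, 3.95 and 4.22 (2.74 ± 0.29, adjusted p = 2.69e-07). Its near copy C1rb was counted apart, and reads that fit both could have been split. C1s, as the table names it, had a log2 fold change of 2.73 ± 0.31 at 1 week and 3.02 ± 0.31 at 8 weeks (adjusted p = 4.57e-07 and 5.19e-07). At 1 day C1s was at 6.26, 5.26 and 5.13 FPKM in MI, below all sham libraries (6.54, 7.21 and 9.55), and its value of -0.41 ± 0.31 (adjusted p = 0.248) became -0.65 after quantile normalization, where it was called lower (adjusted p = 0.0411). Their inhibitor Serping1 followed the same course, with -0.13 ± 0.24 at 1 day (adjusted p = 0.645) and 2.99 ± 0.24 and 3.06 ± 0.24 later (adjusted p = 1.1e-08 and 4.17e-08). C2, the neighbour of Cfb, was at 3.17, 6.85 and 32.6 FPKM at 8 weeks of MI against 0.294, 0.0641 and 0.193 in sham (3.13 ± 0.46, adjusted p = 1.98e-05), again highest in replicate 3. Cfd, the factor D of the alternative pathway, a gene abundant in adipocytes, was at 1.47, 206 and 1063.5 FPKM in the same 3 libraries. The summed adipocyte markers had that order, and so had the summed macrophage, fibroblast and mesothelial markers. The log2 fold change of Cfd was 5.90 ± 1.51 (adjusted p = 0.00214). Without replicates 2 and 3 the late value was 0.86 for Cfd, 1.82 for C2, 2.19 for C1s and 2.35 for Serping1.

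Among regulators, Cd55 rose by 2.04 ± 0.25 at 1 week and 1.79 ± 0.25 at 8 weeks (adjusted p = 1.43e-06 and 1.32e-05) and Clu by 2.48 ± 0.16 and 0.76 ± 0.16 (adjusted p = 1.81e-09 and 0.000565). Without late replicates 2 and 3 the late values were 1.01 for Cd55 and 0.70 for Clu. Cd59a was still lower at 1 week, at 22.8, 25.9 and 24.4 FPKM against 43.7, 40.8 and 44.0 (-0.79 ± 0.10, adjusted p = 1.29e-06), as were Vtn and C1qbp, a mitochondrial protein named for binding C1q (-1.16 ± 0.08, adjusted p = 3.12e-09). At 8 weeks C1qbp was called lower (-0.38 ± 0.08, adjusted p = 0.000606), and after median-ratio scaling so were Cd59a (-0.64, adjusted p = 0.00125), Vtn (-0.73, adjusted p = 0.000644) and Cd93 (-0.53, adjusted p = 0.00187), which were not called on the deposited scale. C7, the one gene of the terminal pathway that passed the filter, rose at 8 weeks (2.04 ± 0.39, adjusted p = 0.000228) and had a value of -0.84 ± 0.39 at 1 week (adjusted p = 0.0561), and these effects differed by 2.88 ± 0.56 (adjusted p = 0.000969). All 1-week MI libraries of C7 lay below sham, and the gene was called lower there under all 3 other scalings, for example with -1.54 after median-ratio scaling (adjusted p = 0.000471). Without late replicates 2 and 3 its 8-week value was 0.70. The weaker rises depended on the scaling. After median-ratio scaling Cr1l turned from 0.61 to -0.33 at 1 week (adjusted p = 0.000909) and from 0.44 to -0.25 at 8 weeks (adjusted p = 0.0082), Colec11 turned from 0.68 to -0.21 at 1 week without being called, and Masp1, Clu at 8 weeks (0.05) and Cfd at 1 week (3.14, adjusted p = 0.0581) were no longer called. Below the filter were Masp2, Colec10, Hc (which encodes C5), C6, C8g, Daf2, Cd46, Cd59b, Susd4, Csmd1 and Cr2, and C1s2, Mbl1, Mbl2, Fcnb, C8a, C8b, C9 and C4bp were not analysed here.

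**Figure D4:**
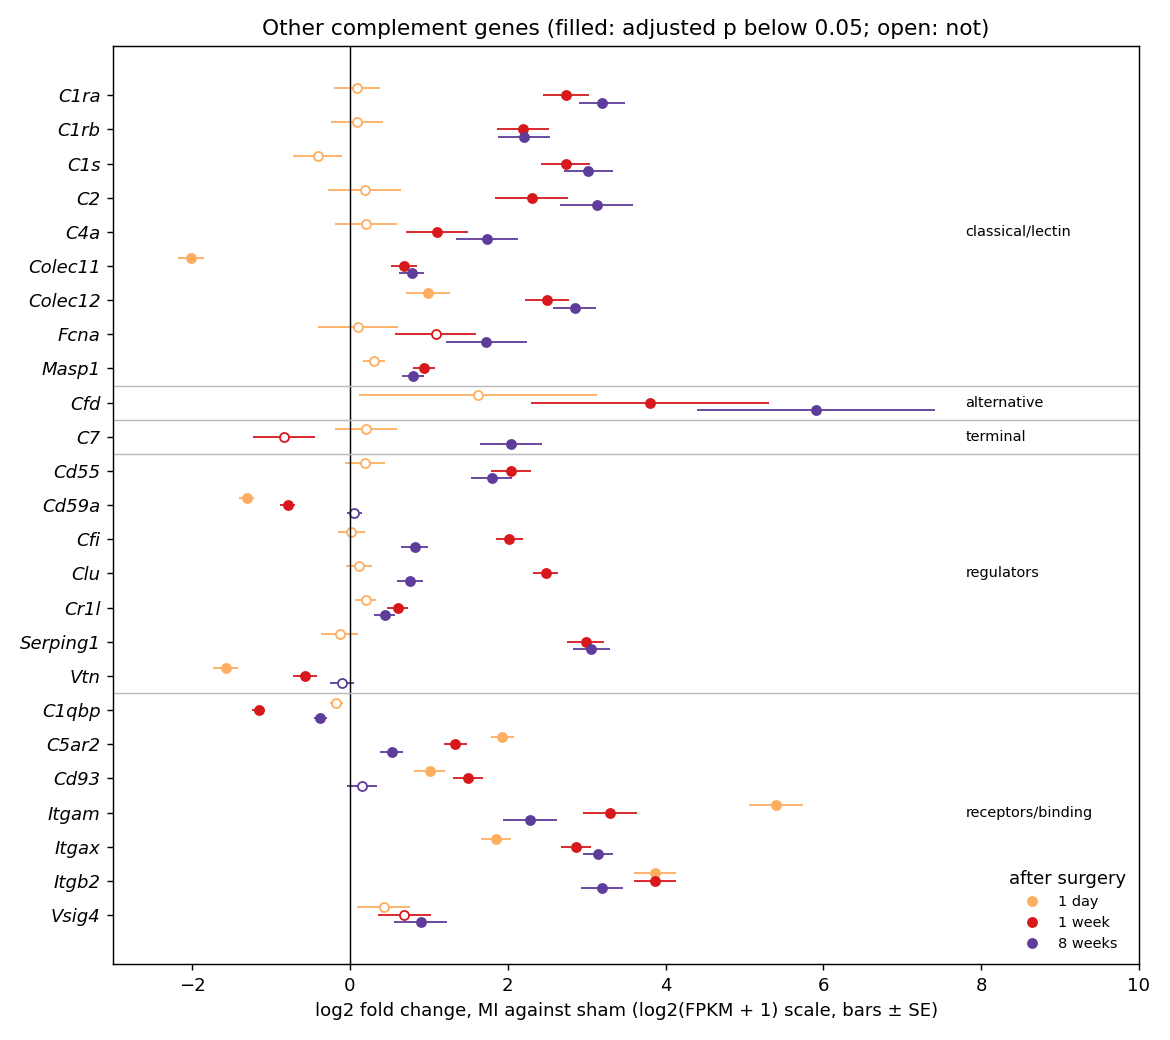
Log2 fold change of MI against sham on the log2(FPKM + 1) scale for 25 of the 27 other complement genes tested, grouped by role, at the early (orange), middle (red) and late (purple) stages, with bars of ± 1 SE from limma, filled where the adjusted p is below 0.05. At 1 day the filled points are 6 rises, 5 of them receptors or binding proteins, and 3 falls.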

How the data were processed

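The authors aligned TruSeq libraries and estimated expression per gene. The submitters' processing notes name TopHat2 2.0.13, Bowtie2 2.2.3, Cufflinks 2.2.1 and the build mm10, and the options are not given in the sources used here. The authors deposited FPKM per gene and library, and quantile-like normalized log2 values of FPKM + 1, which served as an alternative only. The deposited fold and p-value columns, which hold the authors' comparisons, and the small RNA table were not used.

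Log2(FPKM + 1) was kept for 12858 genes that reached 1 FPKM in 3 or more libraries and was fitted with limma 3.58.1 (R 4.3.3, intensity trend, 6 group means, 12 residual degrees of freedom, two-sided moderated test) after a test on simulated data. P-values were adjusted over all tested genes by Benjamini-Hochberg with a threshold of 0.05; SE are those of the fit. An exact test of 3 against 3 libraries cannot go below p = 0.1 and was not used. All members were named, then the other complement genes with a mean of at least 5 FPKM and the next in level to at most 20 genes with values, and the 3 nearest genes of each member; C5ar2 was named after its values were seen, to complete the early count, and C4a as a near copy of C4b. The members and lists were chosen with earlier results of these data known. Depth was estimated from the steps of FPKM times transcript length in low genes with 1 transcript. No 2 libraries were identical (highest Pearson r 0.9965 over genes). The alternatives were another pseudocount, other filters and scalings, each stage alone, a replicate block, no trend and each library left out. Late MI replicates 2 and 3 were also left out, which was chosen after the data were seen. That fit holds a single late MI library, so its SE and p-values hold no spread of late MI. Some genes of the list of other complement genes are counted but not reported here by name.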

Additional observations from a re-analysis of the deposited data

Results flagged for a closer look

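The effects of MI differed between stages for 8 of the 9 complement genes, by the test of the difference of the MI and sham contrasts in limma (adjusted p below 0.05), as they did for 88.5% of all tested genes in at least 1 of the 3 differences. Between 1 week and 1 day the log2 difference was 3.20 for C1qa, 3.35 for C1qb, 3.44 for C1qc, 1.69 for C3, 2.51 for C4b, 1.70 for Cfb and 2.10 for C3ar1. Between 8 weeks and 1 week it was -1.31 for C1qa, -1.50 for C1qb, -1.46 for C1qc, -2.50 for C3ar1 and -1.43 for C5ar1. Between 8 weeks and 1 day it was 1.88 for C1qa, 1.85 for C1qb, 1.98 for C1qc, 1.82 for C3, 3.34 for C4b, 1.54 for Cfb and -2.18 for C5ar1. Groups of 3 libraries were too small for the test of single outlying libraries. The cause of these differences was not tested.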

How the results depend on the processing

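The counts of complement genes higher in MI were 9 at 1 week and 9 at 8 weeks under all 28 alternatives. Among these is the fit with a single late MI library, which holds no spread of that group. The 8-week adjusted p by limma reached at most 0.00508 for C3, 0.00202 for C4b and 0.00687 for Cfb over the alternatives. At 1 day 5 became 8 with each stage fitted alone, and 5 to 7 when 1 library was left out. Of the other complement genes, 6 higher at 1 day became 10 with each stage alone and 10 with late MI replicates 2 and 3 left out. The 3 lower at 1 day became 5 with quantile normalization, the authors' normalized values, each stage alone or late MI replicates 2 and 3 left out, and 3 to 5 with 1 library left out. At 1 week 21 higher became 13 and at 8 weeks 23 became 13 among genes with a mean of at least 5 FPKM, where fewer genes were tested. The 3 lower at 1 week became 5 with median-ratio factors. The 1 lower at 8 weeks became 4 with quantile normalization, 5 with median-ratio factors and 4 with the authors' normalized values. It became 1 to 2 with 1 library left out. The stage difference of C3 between 8 weeks and 1 week turned from 0.13 to -1.08 with late MI replicates 2 and 3 left out. The sham difference between 1 week and 1 day went from 0 to 1 gene (C3ar1) with late MI replicates 2 and 3 left out and spanned 0 to 1 with 1 library left out; the library was late MI replicate 3. The stage differences of C3 between 1 week and 1 day (0.87 to 1.71 over other choices, 1.55 to 1.83 with 1 library left out) and of Cfb between 8 weeks and 1 day were lost in 8 and in 14 of 27 alternatives.

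The replicate numbers did not pair the libraries (correlation of deviations from group means -0.092 to 0.29), and a fit with a replicate block gave the counts 5, 9 and 9 of complement genes higher in MI, and changed no other count. Scaling moved the share of higher among all called genes from 56.5%, 81.5% and 87% at the 3 stages to 50.7%, 51.3% and 49% with median-ratio factors. Depth limits Cfb in sham most.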
